A study of Mus musculus with 16 samples.

Results

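Single-template productive rearrangements are in-frame T cell receptor β (TCRβ) sequences, free of stop codons, that the immunoSEQ survey counted exactly once in a sample. They were chosen by their deposited reading frame and by a template count of 1, a template being a starting molecule as estimated by the sequencing service. Of 198953 rearrangements in the series, 126344 were productive and 95431 of those (75.5%) were single-template. The 95431 entries held 93681 distinct nucleotide sequences, since some recurred between mice. They took up 18.1% of the 526888 productive templates. The class they are compared with, the 4433 productive rearrangements of 10 or more templates, made up 3.51% of rearrangements and 66.7% of templates, shares that the choice by template count fixes in part.

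The T cells came from subcutaneous tumors of KPC-Luc, a luciferase-expressing cell line of mouse pancreatic ductal adenocarcinoma (PDAC), in female C57BL/6 mice that were 6 to 8 weeks old when obtained. The study's methods give an age of 8 to 10 weeks at the experiments. All mice carried the same implanted line, and all received a peptide and an antibody for 10 days, starting 6 to 7 days after implantation. Control mice received the scrambled peptide with isotype IgG, ANT008 mice the vasoactive intestinal peptide receptor (VIP-R) antagonist ANT008 with IgG, anti-PD-1 mice the scrambled peptide with anti-PD-1, and combination mice ANT008 with anti-PD-1. There were 4 mice in each group, with peptide at 10 µg every day and antibody at 200 µg every 3 days. The sample labels describe CD90.2 selection with a T cell purity of 80 to 85%, but in a protocol that ends in an expression panel, and the study's methods for receptor sequencing name no such selection, so that purity may not be that of these samples. No expression values were at hand with which to check it. Productive templates ranged from 7180 to 72588 per sample (median 32564), from a deposited input mass of 2658 to 2673 ng. Whether RNA or DNA was amplified is unsettled in the sources used here, so that a template could stand for a transcript or for a gene copy, and fewer cells of a clone cannot be told apart from fewer molecules per cell.

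A TCRβ chain is assembled in the thymus by joining a V, a D and a J gene segment. The junction forms the third complementarity-determining region (CDR3), the loop that touches the peptide on an MHC molecule. Ends of the segments are trimmed, and terminal transferase adds nucleotides that no gene encodes (N1 between V and D, N2 between D and J). Junctions without such insertions are made often and recur in many mice. An out-of-frame rearrangement encodes no receptor, rides along in a T cell whose other allele is productive, and therefore records how junctions are made before selection on the receptor. In a tumor, large clones are T cells that divided, whereas sequences counted once are the rare end of the sample, which can hold unexpanded or bystander T cells and also copying errors of larger clones.

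Sequences recurring in the most samples as single templates are shown first, because they are the members that independent mice had in common. Capitals mark the CDR3 from its first codon to the end of the 87-base window, read 5′ to 3′.
TCRBV12-01 with TCRBJ01-04: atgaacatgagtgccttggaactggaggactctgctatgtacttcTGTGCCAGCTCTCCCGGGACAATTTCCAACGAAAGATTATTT
TCRBV13-01 with TCRBJ01-01: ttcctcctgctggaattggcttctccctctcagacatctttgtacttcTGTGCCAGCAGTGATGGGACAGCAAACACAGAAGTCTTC
TCRBV12-02 with TCRBJ01-03: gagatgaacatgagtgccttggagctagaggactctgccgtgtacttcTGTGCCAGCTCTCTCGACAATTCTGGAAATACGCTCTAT
The TCRBV12-01 sequence, with 3 inserted nucleotides, was single-template in 7 samples and was found in 10, reaching at most 6 templates (combination replicate 1). The TCRBV13-01 sequence had 0 inserted nucleotides, was found in 7 samples and was a single template in all 7. The TCRBV12-02 sequence had 1 inserted nucleotide, was single-template in 6 of the 9 samples that held it, and reached at most 3 templates. The first and second were single-template in mice of all 4 groups, and the TCRBV12-02 sequence in control, anti-PD-1 and combination mice, while ANT008 replicate 1 held it at 3 templates. Recurrence of this kind was rare, and 92178 of the 93681 distinct sequences were single-template in 1 sample only.

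A single template next to the most abundant rearrangement of the series is shown because it bears on what a count of 1 can be. The abundant sequence, TCRBV13-03 joined to TCRBJ02-07, held 10570 templates in combination replicate 3. Capitals now mark the 3 bases at which the 2 sequences differ, all of them before the CDR3, which begins at tgtgcc.
10570 templates: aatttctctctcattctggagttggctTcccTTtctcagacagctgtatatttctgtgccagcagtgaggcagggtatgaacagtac
1 template: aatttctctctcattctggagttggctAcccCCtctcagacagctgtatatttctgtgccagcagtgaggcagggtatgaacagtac
Both came from the same mouse and carried the same J gene, a CDR3 annotated at 36 bases and identical CDR3 bases as far as the window reaches. This pair was picked after its values were seen. The abundant sequence had 0 single-template neighbours at 1 substitution in that sample, but 25 single templates shared its CDR3 bases and J gene.

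How many single-template rearrangements a tumor yielded was compared between groups, as a count of the rare end of each sample and not of clones. Control mice had 2855, 7010, 7620 and 2913 of them, ANT008 mice 3373, 8324, 1783 and 2737. Anti-PD-1 mice had 7321, 4376, 10749 and 1619, and combination mice 10295, 4794, 9929 and 9733. Of the combination mice, 3 of 4 lay above every control mouse, while the ANT008 and anti-PD-1 mice spread over the whole range of the controls and beyond it at both ends. On the log2 scale the combination mean was 1.81-fold the control mean (log2 difference 0.86, SE 0.63, n = 4 and 4, p = 0.411, exact permutation form of Dunnett's two-sided comparison). ANT008 was at 0.745-fold (p = 0.832) and anti-PD-1 at 1.06-fold (p = 0.998) in the same exact comparison, so no group differed from control beyond the spread between mice.

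Depth varied widely among mice and adds single templates by itself, so each sample was also brought to the 7180 productive templates of the shallowest by calculating the expected number. Control mice were then at 1488 ± 589 (SD, n = 4), ANT008 mice at 1756 ± 596, anti-PD-1 mice at 1836 ± 441 and combination mice at 2454 ± 635 single-template rearrangements. The combination mean was 1.71-fold that of control (exact p = 0.0744, n = 4), with 2 of 4 combination mice above all controls. ANT008 changed side, from below control at the deposited depth to 1.21-fold of it (exact p = 0.716, n = 4), and anti-PD-1 was at 1.29-fold (exact p = 0.534, n = 4).

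**Figure D1:**
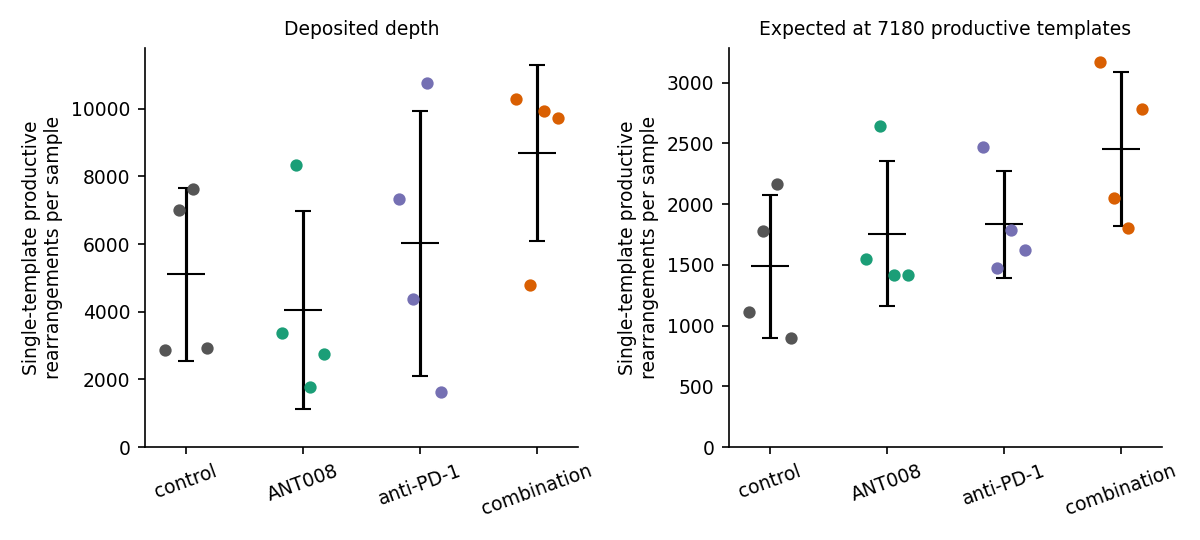
Number of single-template productive rearrangements in each of the 16 samples by treatment group, at the deposited depth (left) and the number expected at 7180 productive templates (right); points are mice, bars the mean and SD of 4 mice. At the deposited depth 3 of 4 combination mice lie above all controls, and at equal depth 2 of 4 do.

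As a share of all productive rearrangements, single templates ranged from 64.1% (anti-PD-1 replicate 4, exact 95% binomial interval 62.2 to 66.0) to 80.5% (combination replicate 3, 79.8 to 81.2). These intervals cover counting error only. The lowest shares, 64.1% and 65.0%, belonged to the shallowest samples, anti-PD-1 replicate 4 with 7180 and ANT008 replicate 3 with 11537 productive templates, although within a sample the share was higher at 50% of the templates in 16 of 16. Group means were 74.9% ± 2.96 for control, 69.6% ± 5.22 for ANT008, 72.4% ± 5.72 for anti-PD-1 and 77.1% ± 3.51 for combination mice (SD, n = 4 each). None passed the exact permutation comparison with control (p = 0.278, 0.781 and 0.816). At equal depth the means were 77.2%, 75.3%, 75.8% and 82.6% in the same order. Anti-PD-1 replicate 4, whose depth this was, stayed at 64.1%, while anti-PD-1 replicates 1, 2 and 3 were at 81.7%, 76.6% and 80.8%. The combination difference then grew from 2.26 to 5.39 points (exact p = 0.402, n = 4), and the ANT008 difference went from −5.26 to −1.91 points (exact p = 0.930, n = 4).

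Measured in templates, single-template rearrangements took up 13.9% ± 5.55 of the productive repertoire of control mice (SD, n = 4), and in the combination they took up 23.5% ± 6.43. The individual combination values were 30.8%, 19.5%, 16.9% and 26.9%, against 10.98%, 17.0%, 19.99% and 7.81% in control, so that the groups overlapped. The difference of 9.60 percentage points (SE 3.96) had p = 0.0793 in the exact permutation comparison and 0.476 after adjustment over the 18 treatment comparisons of this kind. At equal depth it was 13.4 points (exact p = 0.0833, n = 4). Without control replicate 3 it was 11.6 points (exact p = 0.0436, n = 3 and 4), and without combination replicate 3 it was 11.8 points (exact p = 0.0401, n = 4 and 3), so which mice enter decides the side of 0.05. ANT008 and anti-PD-1 were at 17.2% ± 5.47 and 18.5% ± 4.82 (exact p = 0.750 and 0.541, n = 4).

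The same share gives Good's coverage, the estimated chance that a further template would be a rearrangement already seen. Coverage ran from 69.2% in combination replicate 1 to 92.2% in control replicate 4, with a median of 83.0%. In other words, 7.81 to 30.8 of every 100 further templates were expected to be new. At 2 times the depth a sample was estimated to yield 47.1% to 71.3% more productive rearrangements (median 63.7%). The formula was checked by keeping 50% of the templates and predicting the full sample, which returned 98.9% to 99.4% of the rearrangements observed. The numbers at 50% were expected values from the same counts, so this cannot check the estimate beyond the deposited depth.

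The Chao1 estimate, a lower bound on the rearrangements present that rests on the numbers seen once and seen exactly 2 times, ranged from 5021 (anti-PD-1 replicate 4) to 52440 (the third combination mouse). The survey had seen 23.5% to 50.3% of it (median 30.4%). Chao1 was not stable in depth: with 50% of the templates it came to 64.4% to 91.2% of its full value. Combination mice had 1.72-fold the Chao1 estimate of control mice (exact p = 0.598, n = 4) and 1.96-fold at equal depth (exact p = 0.140, n = 4), with 3 of 4 above all controls in both. ANT008 and anti-PD-1 lay below control at the deposited depth (0.594-fold and 0.933-fold, exact p = 0.623 and 0.999, n = 4). Both lay slightly above it at equal depth (1.02-fold and 1.13-fold, exact p = 1.000 and 0.963).

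Out-of-frame rearrangements were seen as single templates more often than productive ones in 16 of 16 samples. The share was 72.7% to 82.9% out of frame (median 79.0%), against 64.1% to 80.5% in frame (median 74.3%).

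Single-template receptors had longer CDR3s than abundant ones. Their mean CDR3 was 42.25 nucleotides (SD 0.215 over 16 samples), against 41.28 (SD 0.286) for rearrangements of 10 or more templates in the same mice. The difference of 0.972 nucleotides (SE 0.0758) had the same sign in 16 of 16 samples (exact two-sided sign-flip permutation test, p = 3.05176e-05, the smallest it can give; adjusted over 4 measures, 0.00012207). CDR3s of 48 nucleotides or more made up 15.03% ± 1.26 of single templates against 10.2% ± 1.504 (SD, n = 16), and those of 36 or fewer 13.4% ± 1.20 against 20.2% ± 2.92, each in the same direction in all 16 samples.

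Every part of the junction but the V end was longer on average. The D segment kept 6.75 against 6.29 nucleotides and the J segment 18.24 against 17.89, both in 16 of 16 samples, while the V segment kept 13.61 against 13.76. Inserted nucleotides averaged 3.65 (SD 0.0778) in single-template and 3.33 (SD 0.191) in abundant rearrangements. The difference of 0.324 (SE 0.0469) was positive in 14 of 16 samples (exact sign-flip permutation p = 0.00012207, adjusted 0.000244141). N1 averaged 1.88 against 1.75 and N2 1.77 against 1.58. Junctions without any insertion made up 8.26% ± 0.735 of single templates and 10.3% ± 2.80 of abundant rearrangements (SD, n = 16), lower in 13 of 16 samples (difference −2.02 points, SE 0.677, exact p = 0.00408936). At equal depth that last difference was −1.35 points (exact p = 0.233), whereas those in length (0.774 nucleotides, 14 of 16 samples, exact p = 0.000335693) and insertions (0.258, 12 of 16, exact p = 0.00604248) still passed. The length difference was negative there in control replicates 1 and 3 (−0.518 and −0.349 nucleotides).

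Most of the difference lay between 1 and 2 templates. Mean CDR3 length over samples was 42.25 nucleotides at 1 template, 41.20 at 2, 41.52 at 3 to 4, 41.41 at 5 to 9, 41.32 at 10 to 19, 41.25 at 20 to 99 and 41.08 at 100 or more templates, so that from 3 templates upward each class was a little shorter than the one before. Inserted nucleotides went from 3.65 at 1 template to 3.27 at 2 and lay between 3.23 and 3.35 in all higher classes. The members just inside the rule were the 95431 single templates (pooled mean 42.33 nucleotides) and those just outside it the 16196 rearrangements of 2 templates (41.15). At the edge of the comparison class, 378 rearrangements had 10 templates and 509 had 9 (41.67 and 41.08).

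Out-of-frame rearrangements, on which no receptor is selected, showed a step of their own between 1 and 2 templates, from 42.55 to 41.18 nucleotides and from 4.25 to 3.73 insertions. Their length was higher again at 3 to 4 templates (42.08). Against 10 or more templates (42.04 nucleotides) the out-of-frame single templates had a difference of 0.515 (SE 0.111, 14 of 16 samples, exact sign-flip p = 0.000854492). Insertions differed by 0.413 (SE 0.0753, 15 of 16, exact p = 9.15527e-05). Against this class, the productive length difference exceeded the out-of-frame one by 0.458 nucleotides (SE 0.115, 13 of 16, exact p = 0.00137329). That in insertions did not pass (−0.0889, SE 0.0882, exact p = 0.354, n = 16).

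**Figure D2:**
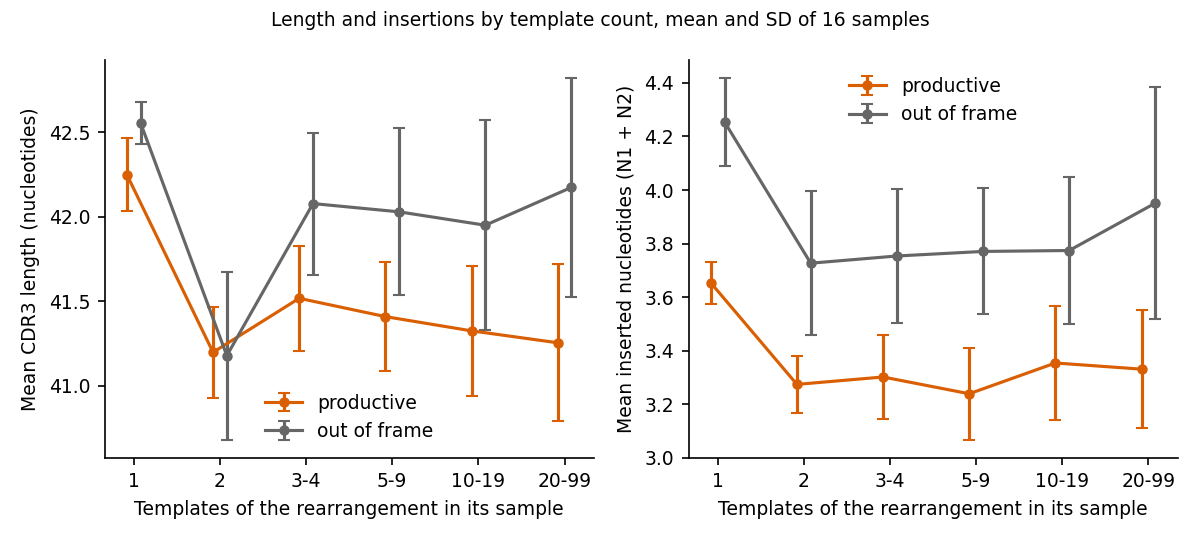
Mean CDR3 length in nucleotides (left) and mean inserted nucleotides (right) by the template count of a rearrangement in its sample, for productive and out-of-frame rearrangements; points are means of 16 samples and bars their SD. Productive means fall from 42.25 to 41.20 nucleotides between 1 and 2 templates and lie between 41.25 and 41.52 in the 4 higher classes drawn.

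The gap in CDR3 length between single-template and abundant receptors was compared between groups, and its order depended on depth. At the deposited depth it was 0.772 nucleotides ± 0.118 for control, 0.863 ± 0.125 for ANT008, 0.924 ± 0.0754 for anti-PD-1 and 1.33 ± 0.426 for combination mice (SD, n = 4). The combination values were 1.91, 0.903, 1.18 and 1.33 nucleotides, all above the highest control value of 0.876. Combination exceeded control by 0.557 nucleotides (SE 0.164, exact permutation form of Dunnett's comparison p = 0.00380, 0.0342 after adjustment over the 9 class differences compared between groups). ANT008 and anti-PD-1 exceeded control by 0.0903 (exact p = 0.964) and 0.152 (exact p = 0.760, n = 4). At equal depth, with 62.4 to 101 rearrangements expected in the abundant class of a mouse, the gap was 0.0088 ± 0.534 in control, 0.882 ± 0.249 with ANT008, 1.11 ± 0.368 with anti-PD-1 and 1.09 ± 0.321 in combination mice (SD, n = 4). There all treated groups exceeded control, ANT008 by 0.873 (exact p = 0.0172), anti-PD-1 by 1.104 (exact p = 0.00304) and the combination by 1.086 (exact p = 0.00354), so the excess was not particular to the combination. Those 3 p-values were not adjusted over the 9 class differences. By mouse the gap ran from −0.518 to 0.622 in control and from 0.608 to 1.18 with ANT008, so those groups overlapped. All of these comparisons between groups were added after the data had been seen. The single templates themselves averaged 42.37 nucleotides in combination and 42.31 in control mice (exact p = 0.969, n = 4), whereas the abundant rearrangements of combination replicate 1 were the shortest of all at 40.59. With 5 or more templates as the comparison class the excess was 0.239 (exact p = 0.353), with 2 to 9 templates 0.118 (exact p = 0.850), and with 20 or more 0.905 (exact p = 0.00023643, n = 4 for each). With 20 or more templates ANT008 and anti-PD-1 were also under 0.05 without adjustment (0.652, exact p = 0.00495, and 0.536, exact p = 0.0187). Out of frame it was 0.00302 (exact p = 1.000, n = 4). Without combination replicate 1 it was 0.364 (exact p = 0.0101, n = 4 and 3).

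No treatment moved the CDR3 length of single templates past the threshold, the means being 42.31, 42.11, 42.20 and 42.37 nucleotides in control, ANT008, anti-PD-1 and combination mice (exact p = 0.410, 0.812 and 0.969 against control, n = 4). Mean insertions of all treated groups lay below those of control, and none passed after adjustment. Control mice averaged 3.74 inserted nucleotides, ANT008 mice 3.62 (difference −0.119, SE 0.0450, exact p = 0.0503), anti-PD-1 mice 3.61 (−0.132, exact p = 0.0289) and combination mice 3.65 (−0.0821, exact p = 0.213). The 4 anti-PD-1 values (3.52, 3.64, 3.66 and 3.61) lay below all 4 control values (3.80, 3.71, 3.77 and 3.67). The anti-PD-1 difference was no longer past the threshold after adjustment over the 18 comparisons (0.452, exact form of Dunnett's comparison), nor at equal depth (−0.0753, exact p = 0.311, n = 4). Without control replicate 1 or 3 or anti-PD-1 replicate 1 or 4, exact p lay between 0.0603 and 0.101. The ANT008 difference, in turn, had an exact p of 0.0285 when control replicate 4 was left out, 0.0371 when its own replicate 4 was and 0.0321 when anti-PD-1 replicate 1 was, so which mice enter decides that call too.

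V gene usage of single templates was compared with that of abundant rearrangements, each unique rearrangement counted once. Of 25 V genes tested, 11 differed (44%, adjusted p under 0.05, edgeR's quasi-likelihood test with the mouse as block), 5 higher and 6 lower in single templates. The service's names TCRBV12-02 and TCRBV12-01 are Trbv12-2 and Trbv12-1 in the mouse annotation, a pair of closely similar genes. TCRBV12-02 made up 5.69% ± 0.784 of single-template rearrangements (4.50% to 6.91%) and 2.40% ± 1.01 of abundant ones (0.990% to 3.98%), with no overlap of the 16 samples of each class (SD, n = 16). Its log2 difference was 1.22 (SE 0.13, edgeR adjusted p = 5.76348e-17). TCRBV12-01 was at 6.56% ± 0.971 against 3.72% ± 1.15, a log2 difference of 0.83 (SE 0.11, edgeR adjusted p = 3.4583e-11). Both were higher in single templates in 16 of 16 mice.

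TCRBV17-01 (Trbv17) was higher by 0.79 on the log2 scale in 13 of 16 mice, TCRBV13-02 (Trbv13-2) by 0.55 in 15 and TCRBV31-01 (Trbv31) by 0.48 in 13. Against 2 to 9 templates TCRBV17-01 was at −0.0098 and TCRBV31-01 at −0.0637, neither passing, while TCRBV12-02 (0.44), TCRBV12-01 (0.53) and TCRBV13-02 (0.32) were still higher. Lower in single templates were TCRBV03-01 (Trbv3, −0.56 in 14 of 16 mice), TCRBV02-01 (Trbv2, −0.55 in 16 of 16) and TCRBV26-01 (Trbv26, −0.47 in 11). TCRBV14-01, TCRBV15-01 and TCRBV13-03 were lower by −0.37, −0.34 and −0.24, and these 3 did not pass with library sizes scaled by TMM, which left 5 genes higher and 3 lower. Each of the 3 also lost its call when certain mice were left out: TCRBV14-01 without control replicate 4 or anti-PD-1 replicate 3, TCRBV15-01 without control replicate 2, ANT008 replicate 1, anti-PD-1 replicate 3 or combination replicate 1, 3 or 4, and TCRBV13-03 without ANT008 replicate 1, 3 or 4 or anti-PD-1 replicate 2, 3 or 4 (edgeR adjusted p up to 0.137). Of the V genes common in invariant natural killer T cells, T cells that recognise lipids, TCRBV13-02 was higher while TCRBV29-01 (log2 difference −0.05) and TCRBV01-01 (0.04) did not pass. The median log2 difference of these 3 was 0.04, against −0.09 over all 25.

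Out of frame, the same comparison of classes called 3 of 26 V genes (11.5%): TCRBV02-01 (−0.50), TCRBV13-02 (0.49) and TCRBV24-01 (−0.62). TCRBV12-02 had a log2 difference of 0.12 there (SE 0.21), TCRBV12-01 of −0.13 (SE 0.13) and TCRBV17-01 of −0.14 (SE 0.22). The difference between the frames was itself tested, and 8 of 26 V genes passed (30.8%). In this test, and in that of J genes below, each frame of a mouse was its own block. The pairing of the frames by mouse was therefore not used. TCRBV12-02 exceeded its out-of-frame difference by 1.11 (edgeR adjusted p = 0.000462794), TCRBV12-01 by 0.96 (7.9895e-06), TCRBV17-01 by 0.92 and TCRBV24-01 by 0.75. TCRBV13-03 (−0.67), TCRBV03-01 (−0.58), TCRBV13-01 (−0.54) and TCRBV19-01 (−0.42) fell short of theirs. For TCRBV13-02 and TCRBV02-01 the difference between frames was 0.06 (SE 0.16) and −0.05 (SE 0.17), neither passing.

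Usage over all V genes was also summarised as a squared distance from the usage of out-of-frame rearrangements, multiplied by 1000 and corrected for what the sample sizes add. Single templates lay at 7.09 ± 0.999 and abundant rearrangements at 9.29 ± 4.33 (SD, n = 16), nearer in 11 of 16 samples (difference −2.20, SE 1.18, exact sign-flip permutation p = 0.00982666). One mouse, anti-PD-1 replicate 4, differed by −18.9, and it had 101 abundant rearrangements, the fewest of any. Without it the mean difference was −1.09. Against 5 or more templates the difference was −0.939 (exact p = 0.183, n = 16), and against 2 to 9 templates −0.0847 (exact p = 0.889).

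J gene usage differed more widely. Of 13 J genes tested, 10 passed (76.9%), 5 higher and 5 lower in single templates. TCRBJ01-01 (Trbj1-1) took up 10.0% ± 0.876 of single templates (8.89% to 11.95%) and 4.99% ± 1.63 of abundant rearrangements (1.00% to 7.56%), without overlap (SD, n = 16). Its log2 difference was 0.88 (SE 0.09, edgeR adjusted p = 9.94657e-12). TCRBJ01-06 (Trbj1-6) was higher by 1.30 in 15 of 16 mice and TCRBJ02-04 (Trbj2-4) by 0.85 in 16 of 16, while TCRBJ02-05 (0.23) and TCRBJ02-02 (0.20) were higher by less. TCRBJ01-05 (Trbj1-5, −0.45), TCRBJ02-07 (Trbj2-7, −0.45 in 16 of 16), TCRBJ02-01 (−0.26), TCRBJ01-03 (−0.25) and TCRBJ01-04 (−0.21) were lower. TCRBJ02-07, the J gene used most, fell from 26.9% ± 2.84 of abundant rearrangements to 19.4% ± 1.42 of single templates (SD, n = 16). The J1 cluster, the genes next to the first D segment, had 2 genes higher and 3 lower of 6 (median log2 difference −0.14), and the J2 cluster 3 higher and 2 lower of 7 (median −0.05, against −0.07 over all 13). The J1 cluster made up 33.3% ± 0.980 of single templates and 29.9% ± 3.30 of abundant rearrangements (SD, n = 16).

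The class differences of J genes were also compared out of frame, where 10 of 14 J genes passed (71.4%), among them TCRBJ01-06 (0.66), TCRBJ02-04 (0.62), TCRBJ02-05 (0.59), TCRBJ01-01 (0.38) and TCRBJ01-05 (−0.74). The frames differed for 6 of 14 (42.9%), with TCRBJ01-01 (0.50), TCRBJ01-02 (0.43) and TCRBJ01-03 (0.39) higher in frame and TCRBJ02-07 (−0.36), TCRBJ02-05 (−0.36) and TCRBJ02-03 (−0.35) lower.

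**Figure D3:**
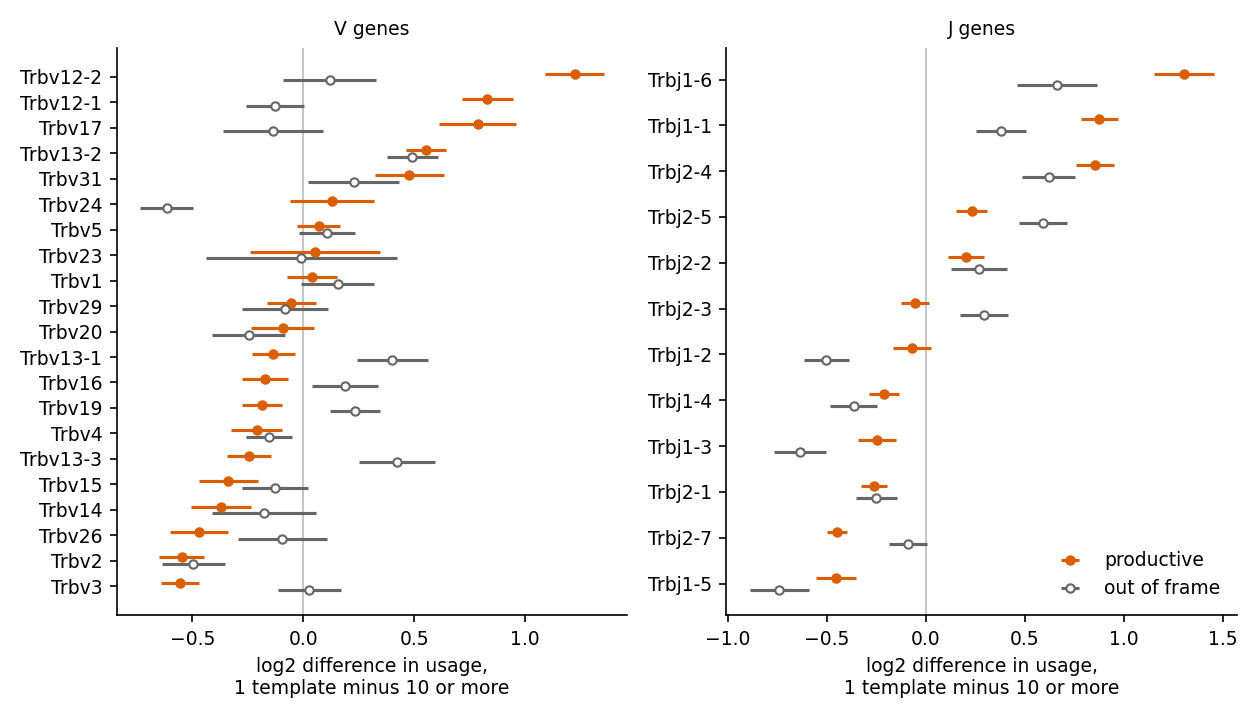
Log2 difference in usage of each V gene (left) and J gene (right) between single-template rearrangements and those of 10 or more templates, for genes with at least 500 single-template rearrangements; points are edgeR estimates over 16 mice and bars their SE, for productive and out-of-frame rearrangements. Trbv12-2 and Trbv12-1 stand at 1.22 and 0.83 in frame and at 0.12 and −0.13 out of frame, whereas Trbj1-6, Trbj1-1 and Trbj2-4 are positive in both.

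J genes differed in how many rearrangements were seen once for each seen with 2 templates. In frame and summed over samples, this ratio was 12.4 for TCRBJ01-01, 11.6 for TCRBJ01-06, 10.9 for TCRBJ02-02 and TCRBJ02-05, 10.8 for TCRBJ02-03 and 10.6 for TCRBJ02-04. It was 6.18 for TCRBJ01-04, 5.27 for TCRBJ01-02, 4.70 for TCRBJ01-03, 4.23 for TCRBJ02-07, 3.95 for TCRBJ01-05 and 2.82 for TCRBJ02-01. Out of frame the same 6 genes were at 10.6 to 13.3 and the other 6 at 3.72 to 6.21. Single genes varied widely between samples, TCRBJ02-03 from 4.13 to 21.2 and TCRBJ01-04 from 2.24 to 10.3, and the 2 sets of 6 did not overlap in 11 of 16 samples. Summed over its genes the first set had the higher ratio in 16 of 16, at 6.99 to 13.5 against 1.83 to 6.36. The 2 sets were split by this same in-frame ratio summed over these samples, so these counts of samples are no independent support for the split. Since Chao1 uses this ratio and primers differ by J gene, its part in the number of single templates and in the coverage estimates was not tested. With single templates reweighted to the J usage of the abundant class, the CDR3 length difference was 0.920 nucleotides and that in insertions 0.347, each positive in 16 of 16 samples (exact sign-flip p = 3.05176e-05). The step from 1 to 2 templates was not reweighted in this way. Against 2 to 9 templates, edgeR called 12 of 13 J genes.

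**Figure D4:**
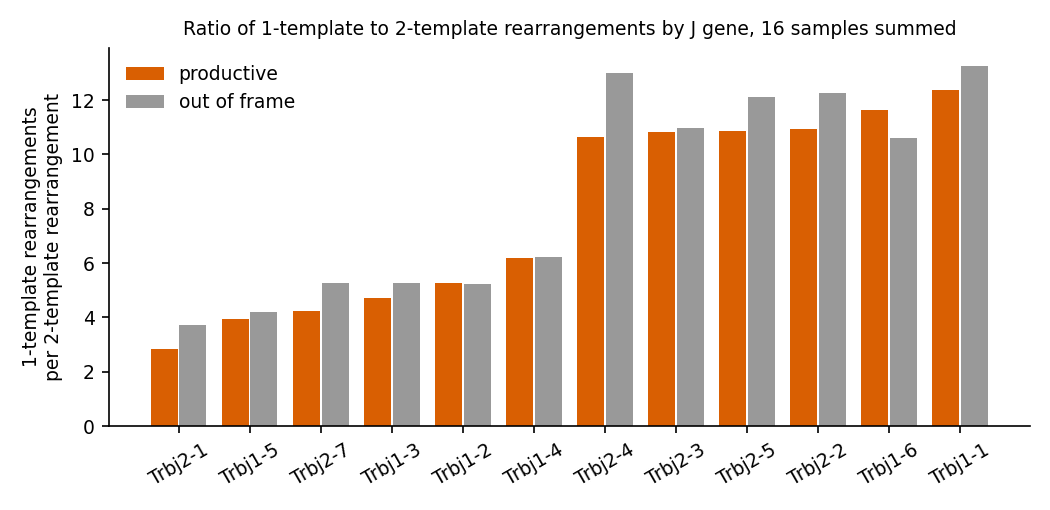
Rearrangements of 1 template per rearrangement of 2 templates for each J gene, summed over 16 samples, productive and out of frame. The 6 J genes on the right have ratios of 10.6 to 12.4 in frame and the 6 on the left of 2.82 to 6.18.

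Treatment did not shift V or J usage of single templates past the threshold. With all 16 samples in 1 edgeR fit, 0 of 25 V genes (0%) and 0 of 13 J genes (0%) passed for ANT008, anti-PD-1 or the combination against control, and DESeq2 called 0 as well. At an unadjusted p under 0.05, edgeR had 4 V genes and 1 J gene for ANT008, 1 V gene for anti-PD-1 and 0 for the combination. The smallest p among V genes belonged to TCRBV19-01 for ANT008 (log2 difference 0.34, SE 0.12, edgeR adjusted p = 0.217) and to TCRBV14-01 for both anti-PD-1 (−0.26, adjusted p = 0.542) and the combination (−0.23, adjusted p = 0.827). Among J genes it belonged to TCRBJ01-03 for ANT008 (−0.24, edgeR adjusted p = 0.191), TCRBJ02-07 for anti-PD-1 (−0.11) and TCRBJ01-04 for the combination (−0.12).

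Single templates were more private than abundant rearrangements. Between 3.97% and 7.54% of a sample's single templates (median 4.73%) had the same nucleotide sequence in at least 1 other mouse, against 12.997% to 25.2% of its rearrangements of 10 or more templates (median 16.1%), lower in 16 of 16 samples. Sharing followed the junction. Of single templates without inserted nucleotides, 15.3% to 27.0% were found in another mouse, and of those with insertions 2.77% to 5.95%. Shared single templates averaged 1.4045 inserted nucleotides and private ones 3.77 (medians over samples), with fewer in the shared ones in 16 of 16. Between 0.155% and 2.16% of single templates (median 0.419%) were among the rearrangements of 10 or more templates of another mouse.

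Some single templates repeated the CDR3 of a large clone of their own mouse, as in the pair printed above. In all, 2941 of them (3.08%; 1.53% to 8.48% by sample, median 3.31%) had exactly the CDR3 bases and J gene of a rearrangement of 10 or more templates in the same sample. Of these, 1472 also carried its V gene name and differed only in bases before the CDR3, and 1469 carried another V gene name. The same count was made against the abundant rearrangements of each other mouse, leaving out single templates identical to one of them. It gives a background of matches between mice that does not include sequences recurring whole. With the same V name, 0.797% to 4.05% of single templates matched in their own sample (median 1.78%) and a mean of 0.0122% to 0.110% in the others (median 0.0309%). With another V name the values were 0.0618% to 4.43% (median 1.495%) and 0.0210% to 0.151% (median 0.0462%). The own sample was higher in 16 of 16 for both kinds. In anti-PD-1 replicate 4 the match with another V name was 1 rearrangement (0.0618% against 0.0247%).

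Large clones had such single templates more often. Of 4429 abundant CDR3s, 1350 (30.5%) had at least 1, and their median was 47.5 templates, against 17 for those without. The 10570-template clone had the most, 25, and the next clone had 17. TCRBV13 genes, a family of close relatives, made up 50.4% of these single templates and 23.3% of all single templates. The close pair TCRBV12-01 and TCRBV12-02 went the other way, at 6.02% and 4.01% of them against 6.89% and 5.94% of all. These shares were not set against the V usage of the abundant rearrangements that were matched. Out of frame, 930 single templates (1.67%) matched in this way. What made them (copying errors before the CDR3, template switching, or T cells that share a junction) was not tested. Leaving all 2941 out gave a CDR3 length difference of 1.04 nucleotides (SE 0.0731, 16 of 16 samples) and called 11 V and 10 J genes between classes. For ANT008 against control it brought TCRBJ01-03 past the threshold (log2 difference −0.28, edgeR adjusted p = 0.0267).

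**Figure D5:**
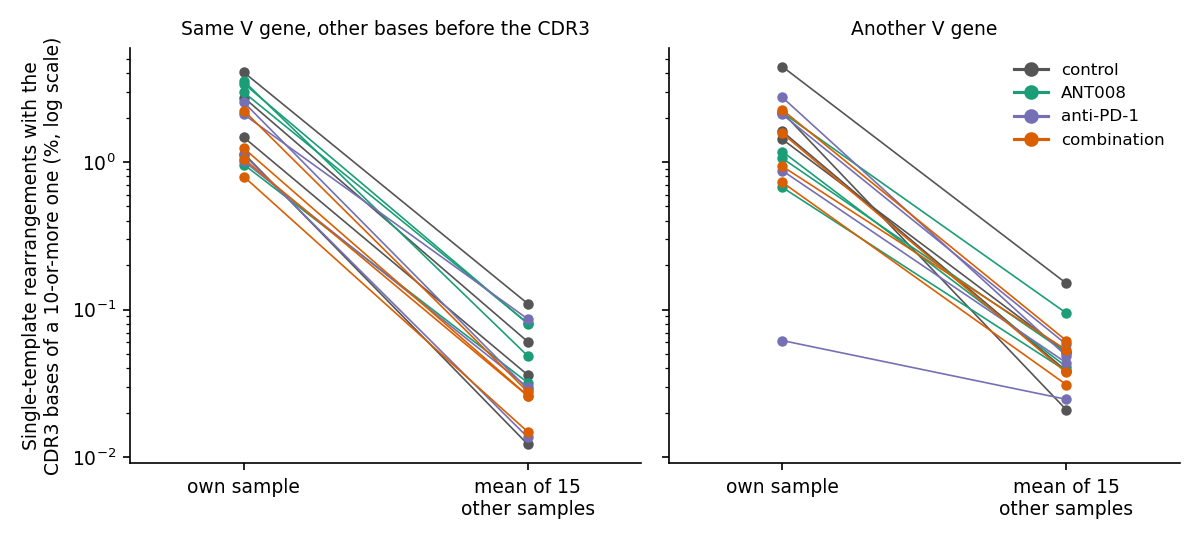
Share of each sample's single-template productive rearrangements, on a log scale, that have the CDR3 bases and J gene of a rearrangement of 10 or more templates in their own sample or, as a mean, in the 15 other samples, with the same V gene name (left) or another (right); each line is 1 mouse. The own-sample share is higher in 16 of 16 mice in both panels, in anti-PD-1 replicate 4 on the right by 1 rearrangement.

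Neighbours at a single substitution were few. Only 152 single templates (0.159%) differed by 1 base from a rearrangement of 10 or more templates of their sample. By sample the share was 0.0713% to 0.309%, against 0.0829% to 0.305% for the abundant rearrangements of other mice, higher in the own sample in 11 of 16. A pair with TCRBV12-01 and TCRBJ02-07 from combination replicate 1 is shown, picked after its values were seen, with the differing base in capitals.
35 templates: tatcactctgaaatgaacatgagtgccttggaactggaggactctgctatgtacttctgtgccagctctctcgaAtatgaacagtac
1 template: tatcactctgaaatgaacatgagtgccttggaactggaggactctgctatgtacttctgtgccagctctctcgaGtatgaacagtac
These were found in 7 and 9 samples respectively, so neighbours can be junctions that recur between mice. Of the 152 substitutions, 52 lay before the CDR3 (34.2%), where 54.8% of the bases of single templates lie, and 100 lay within it.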

How the data were processed

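The deposited values were whole-number template counts per unique 87-base TCRβ rearrangement (immunoSEQ, survey depth), with gene names, reading frame, CDR3 length and insertions annotated by the service; the aligner and build are not given in the sources used here. Deposited fractions of templates were read only as a check of the counts. All 33 V and 14 J names matched a symbol of the GRCm38.p6 annotation. Another 87 single templates had no resolved V gene and 109 no J gene and stayed out of gene tests.

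Treatment groups were compared with control by an exact permutation form of Dunnett's comparison (63063000 assignments), and classes within mice by an exact sign-flip test (65536 flips). Gene usage was tested with edgeR 4.0.16 on rearrangement counts, genes with at least 10 in all (R 4.3.3; DESeq2 1.42.0 as an alternative). Equal depth meant expected values at 7180 templates. Python 3.11.15, numpy 2.4.6, pandas 2.3.3, scipy 1.17.1, numba 0.67.0 and matplotlib 3.10.9 were used. The scripts were tested on simulated data. Named between classes were up to 12 V genes and 6 J genes with the largest absolute log2 difference past the threshold, and between treatments those past it or, where none passed, the gene with the smallest p. Other genes given with a value, and the comparisons with out-of-frame rearrangements, with J usage matched, between treatments of a class difference, of junctions at equal depth, and without shared CDR3 bases, were chosen after seeing the data. The members and gene lists were chosen with earlier results of these data known. Replicate numbers in the labels differ from those in the service's own sample names, so the main tests used them as names only. A block by replicate number and a check of same-numbered samples were added as alternatives.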

Additional observations from a re-analysis of the deposited data

Results flagged for a closer look

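The CDR3 length gap between single-template and abundant rearrangements differed between combination and control mice by 0.557 nucleotides at the deposited depth, by the test of that difference itself given above. At equal depth ANT008 and anti-PD-1 mice differed from control as well, by p-values that were not adjusted. Samples that stood apart within their group of 4 were looked for in 40 groups, of which chance would single out about 1 in 20, and there were 4. Combination replicate 2 had 4794 single-template rearrangements, and its fellows had 9733 to 10295. The mean CDR3 of single templates was 42.35 nucleotides in anti-PD-1 replicate 3, and the others of its group were at 42.14 to 42.17. Inserted nucleotides averaged 3.50 in ANT008 replicate 3, against 3.65 to 3.68 in the rest of its group. The V usage distance of anti-PD-1 replicate 4 differed between classes by −18.9, while its group otherwise ran from −1.88 to 0.186.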

How the results depend on the processing

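Over the 16 samples, the CDR3 length and insertion differences between classes kept their direction and stayed past the threshold under every comparison class. They did so too at equal depth, with J usage matched and out of frame. Within the combination the gap in length was 1.33 nucleotides at the deposited depth. At equal depth it was 0.0088 ± 0.534 in control (SD, n = 4, positive in 2 of 4 mice) and 0.882 to 1.11 in the treated groups. The insertion difference there was positive in 2 of 4 anti-PD-1 mice, 3 of 4 control and combination mice and 4 of 4 ANT008 mice. The share without insertions was −1.35 points at equal depth and −1.03 out of frame, and the V usage distance −0.939 against 5 or more and −0.0847 against 2 to 9 templates, none of them passing. V genes called between classes numbered 3 out of frame. Treatment differences that changed sign were, on the log2 scale, the number for ANT008 at equal depth (0.27) and Chao1 at equal depth for ANT008 (0.0238) and anti-PD-1 (0.17), and, counting templates of 1 or 2, the anti-PD-1 share of rearrangements (0.400 points). Before adjustment over the 18 comparisons, insertions for ANT008 came under 0.05 with templates of 1 or 2 (−0.137). Those for anti-PD-1 were no longer under it at equal depth (−0.0753). Neither passed after that adjustment in the main setting (0.452 for each, exact form of Dunnett's comparison). Without single templates sharing a CDR3 with a large clone, 1 J gene passed for ANT008. The cause of these changes was not tested.

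With the replicate number as a block, replicate block p for anti-PD-1 insertions was 0.0639 (difference −0.132, exact within-number permutation), and no other call changed. That p was not adjusted over the 18 comparisons. Correlations between the deviations of same-numbered samples ran from −0.73 to 0.73 for V genes (mean 0.05, 12 of 24 pairs above 0.1). For J genes they ran from −0.95 to 0.93 (mean −0.12, 8 of 24 pairs above 0.1). With so wide a spread these means do not settle whether same-numbered samples deviated together.

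Leaving out each mouse in turn gave −0.30 to 0.61 for the log2 number and −0.56 to 0.56 for log2 Chao1 with anti-PD-1, and −4.02 to 0.323 points for its share of rearrangements. It gave 7.18 to 11.8 points for the share of templates in the combination, −0.0783 to 0.154 nucleotides for its CDR3 length, and −0.107 to 0.156 for its class difference in insertions. Insertions ranged from −0.142 to −0.0782 for ANT008 and from −0.154 to −0.104 for anti-PD-1.

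Between groups, class differences minus that of control changed sign with 5 or more templates (CDR3 length, ANT008 −0.247 and anti-PD-1 −0.219; insertions, ANT008 −0.0968 and combination −0.0476; share without insertions, ANT008 0.0644) and with 2 to 9 templates (length, ANT008 −0.316 and anti-PD-1 −0.0627; insertions, ANT008 −0.0810 and combination −0.0480). They also did at equal depth for anti-PD-1 (insertions 0.0998, share without insertions −1.36) and out of frame (length, ANT008 −0.0725; insertions 0.178 and share −1.08 for anti-PD-1). None of these passed. Genes that changed sign against 2 to 9 templates were TCRBV17-01 (−0.0098), TCRBV31-01 (−0.0637), TCRBV14-01 (0.0339) and TCRBV13-03 (0.17), and out of frame TCRBV12-01 (−0.13), TCRBV17-01 (−0.14), TCRBV03-01 (0.0280) and TCRBV13-03 (0.42). Chao1 could not be given for templates of 1 or 2, nor CDR3 measures for amino acid clones.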
